A study of Mus musculus with 24 samples.

Results

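The complement system is a cascade of plasma proteases and their targets that tags surfaces for removal and recruits immune cells. This account covers its components and regulators outside the C1q chains: 9 genes, matched by symbol, of the 54532 genes counted. They are the C1 proteases C1ra and C1s1, the C1 inhibitor Serping1, the C3 convertase parts C2, C4a, C4b and Cfb, the central component C3, and Cfi, which encodes the protease that inactivates C3b and C4b. RNA of 24 mouse kidney samples was sequenced in 4 groups of 6 libraries. The groups were wild-type littermates and proximal tubule cell-specific Lrp2 knockouts after 2 weeks of Western diet, and both genotypes after 12 weeks of it. Lrp2 encodes megalin, the endocytic receptor by which proximal tubule cells take up filtered proteins. The genotypes are labelled PTC LRP2-SM22 with +/+ or -/-, and every group ate the Western diet, so no group shows complement levels on ordinary chow. The sources used here give no Cre driver, age, sex or strain. No label says that the libraries of a group came from separate mice, so the p-values rest on the spread among the libraries, which may be technical.

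Complement is started by C1, in which C1q carries the proteases C1r and C1s, or by lectins. C1s cuts C4 and C2 to form a C3 convertase, and factor B forms a second one around C3b. The liver makes most circulating complement, while kidney tubule cells, fibroblasts and macrophages are known local sources, C3 in tubule cells among them. Factor I, with its cofactors, and the C1 inhibitor hold the cascade in check.

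Mice carry tandem C4 genes on chromosome 17, and their near identity bears on every C4 value below. C4b encodes the classical C4 and C4a the sex-limited protein, a close relative that differs in its activation by C1s. The longest transcripts compared, of 5379 bases for C4b and 5371 for C4a, were 96.14% identical over 5367 aligned bases. These 60 bases of exon 21 show a stretch where the genes can be told apart, with their 13 differing bases in capitals. They lie on the minus strand of mm10 at chr17:34735430-34735489 for C4b and chr17:34816086-34816145 for C4a.
C4b: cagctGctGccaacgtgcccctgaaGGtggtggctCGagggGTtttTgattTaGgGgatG
C4a: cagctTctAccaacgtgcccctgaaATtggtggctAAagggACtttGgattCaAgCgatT
Elsewhere the genes share runs of up to 433 identical bases. Of all 100-base windows of their transcripts, 15.2% of those of C4b and 13.1% of those of C4a occur in both genes, and a read lying wholly in such a window cannot be told apart between them.

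RefSeq promoter sequences of GRCm38.p6 were found for 3 of the 9 genes (C1ra, C1s1 and C3). The RefSeq start of C1ra lies inside its gene model, which begins at chr6:124512405. Most of the C1ra window (chr6:124512371-124512620, plus strand) therefore lies within that gene model. The upstream 250 bases of C1s1 (chr6:124542360-124542609, minus strand) and C3 (chr17:57228137-57228386, minus strand) are printed because both genes were higher in the knockout, by unlike amounts, and both windows hold the C/EBP-type letters TTGCNNAA, on either strand, in capitals.
C1s1 upstream: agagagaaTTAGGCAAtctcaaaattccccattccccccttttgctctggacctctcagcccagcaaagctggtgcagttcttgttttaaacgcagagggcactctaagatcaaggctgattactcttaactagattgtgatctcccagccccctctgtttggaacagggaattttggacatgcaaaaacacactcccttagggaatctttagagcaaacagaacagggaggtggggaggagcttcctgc
C3 upstream: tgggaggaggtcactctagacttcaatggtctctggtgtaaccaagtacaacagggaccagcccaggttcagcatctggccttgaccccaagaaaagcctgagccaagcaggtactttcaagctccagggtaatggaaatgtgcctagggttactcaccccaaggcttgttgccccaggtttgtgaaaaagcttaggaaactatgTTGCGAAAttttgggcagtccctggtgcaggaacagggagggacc
The match lay from -242 to -235 bases of the C1s1 start and from -45 to -38 of the C3 start, and 9.56% of 32851 promoters of this length held one. RefSeq gives C1s1 another start, whose window (chr6:124542322-124542571, not printed) held no match to any motif searched. No match to TTGCNNAA, the interferon-stimulated response element, TTCNNNGAA or the NF-kappa B motif was found in the C1ra window, and no match to the last 3 in the other 2. Those last 3 occurred in 2.98%, 7.02% and 7.25% of the promoters. A match is a description of the letters and no evidence of binding.

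Library depth, in units of 1000000 counts, ran from 15.6 to 34.1 in the 2-week wild types, 16.3 to 25.2 in the 2-week knockouts, 11.4 to 14.5 in the 12-week wild types and 11.3 to 15.2 in the 12-week knockouts. Lrp2 stood at 17.8% of its wild-type level in the 2-week knockouts and at 17.6% in the 12-week knockouts (edgeR adjusted p = 2.39e-06 and 3.95e-07), and no knockout library reached a wild-type one. The 8 proximal tubule markers of the labelled tissue were present in every group, with a median summed level of 32570 CPM (counts per 1000000) in wild type against 22810 in knockout at 2 weeks, and 34640 against 21270 at 12 weeks. Lrp2 is itself among these 8 markers, so its own fall is part of that difference. Its mean was 2004.5 against 352 CPM at 2 weeks and 1876 against 323 at 12 weeks. In whole-kidney RNA, fewer cells of a type and less RNA per cell cannot be told apart.

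All 9 complement genes passed the low-count filter. At 2 weeks 7 of them were higher in the knockout, 1 (C4a) was lower and Cfb did not pass the test, where 31.6% of all 17286 tested genes were called in either direction, 18.2% as higher and 13.4% as lower. At 12 weeks 7 were higher, 1 (Cfb) was lower and C4a did not pass, where 38.5% of tested genes were called, 20.7% as higher and 17.7% as lower. The same 7 genes (C1ra, C1s1, Serping1, C2, C3, C4b and Cfi) were higher at both durations. Over the 9 genes the median log2 fold change was 1.57 at 2 weeks and 1.52 at 12 weeks, while that of all tested genes was -0.005 and 0.0. A gene was called at a Benjamini-Hochberg adjusted p under 0.05 over all tested genes in edgeR's quasi-likelihood test, and levels are CPM scaled by edgeR's TMM factors.

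**Figure D1:**
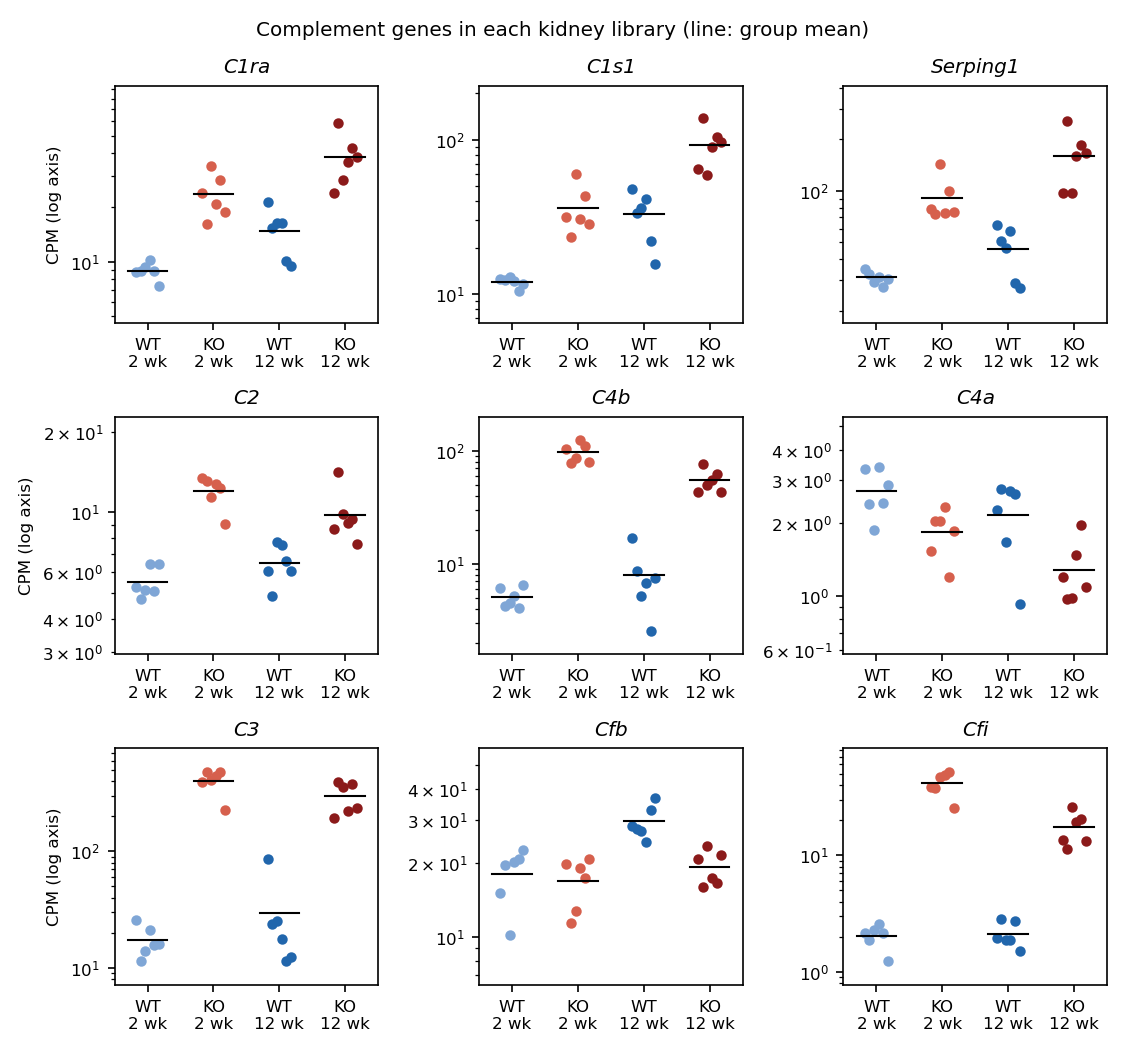
Level of each complement gene (CPM, log axis) in each of the 24 libraries, by genotype (WT, KO) and weeks of Western diet. Points are libraries and lines are group means of 6. The knockout libraries sit above all wild-type libraries of the same duration for C1ra, C1s1, Serping1, C3, C4b and Cfi, and below them for Cfb at 12 weeks.

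The proteases of C1 rose together. C1ra (chr6:124512405-124523443) ran in the 2-week wild types from 7.33 CPM through a median of 8.89 to 10.2, and in the knockouts from 16.2 through 22.5 to 33.8. All 6 knockout libraries lay above all 6 wild types, as 10.3% of tested genes did at 2 weeks, and C1ra rose 2.72-fold (log2 1.44, SE 0.16, edgeR adjusted p = 2.67e-06). At 12 weeks it ran from 9.47 through 15.9 to 21.5 CPM in wild type and from 24 through 36.9 to 58.8 in knockout. The groups again did not overlap, as for 10.1% of tested genes, and the rise was 2.60-fold (log2 1.38, SE 0.24, edgeR adjusted p = 0.000818). C1s1 (chr6:124530345-124542359), the neighbour of C1ra on the other strand, ran from 10.4 through 12.2 to 12.9 CPM in wild type and from 23.3 through 31.1 to 59.5 in knockout at 2 weeks. Its knockout libraries all stood above its wild types, by 3.07-fold (log2 1.62, SE 0.20, edgeR adjusted p = 2.99e-05). At 12 weeks C1s1 ran from 15.7 through 34.8 to 48.1 CPM in wild type and from 58.7 through 93.4 to 139 in knockout. The rise was 2.87-fold without overlap (log2 1.52, SE 0.29, edgeR adjusted p = 0.00167). The 12-week wild types of C1s1 lay close to the level of the 2-week knockouts. Reads of C1ra can be lost through its copy C1rb, since 34.5% of the 100-base windows of C1ra transcripts also occur in C1rb. C1rb held at most 60 counts in any library, which cannot show how many shared reads were counted for neither gene.

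Serping1 (chr2:84765387-84775444), whose product blocks C1r and C1s, moved in the same direction as its targets. In the 2-week wild types it ran from 27.6 CPM through a median of 31.2 to 35.2, and in the knockouts from 73.4 through 77.0 to 144. In the 12-week libraries it ran from 27.1 through 48.8 to 62.9 in wild type and from 96.7 through 163 to 256 in knockout. No knockout library reached down to a wild-type one at either duration. Serping1 rose 2.97-fold at 2 weeks (log2 1.57, SE 0.16, edgeR adjusted p = 5.59e-06) and 3.55-fold at 12 weeks (log2 1.83, SE 0.29, edgeR adjusted p = 0.000603).

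The parts of the classical C3 convertase rose by unlike amounts. C4b (chr17:34728380-34743882) ran from 4.09 CPM through 4.84 to 6.52 in the 2-week wild types and from 77.4 through 95.0 to 124 in the knockouts. These groups were far apart, with a log2 difference of 4.26 (SE 0.15). At 12 weeks C4b ran from 2.54 through 7.09 to 16.7 CPM in wild type and from 43.0 through 52.1 to 75.4 in knockout. It rose 7.05-fold there, without overlap (log2 2.82, SE 0.33, edgeR adjusted p = 9.04e-05). C2 (chr17:34862604-34898265), the protease subunit of the same convertase, rose less. It ran from 4.73 through 5.20 to 6.40 CPM in wild type and from 9.02 through 12.6 to 13.4 in knockout at 2 weeks, 2.23-fold higher without overlap (log2 1.16, SE 0.13, edgeR adjusted p = 1.46e-06). At 12 weeks C2 ran from 4.87 through 6.33 to 7.78 in wild type and from 7.61 through 9.27 to 14.2 in knockout. There its lowest knockout lay under its highest wild type, and the rise was 1.54-fold (log2 0.62, SE 0.16, edgeR adjusted p = 0.0065).

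C4a (chr17:34809092-34823464) and Cfb were the members that did not rise at either duration. C4a ran from 1.87 CPM through 2.64 to 3.41 in the 2-week wild types and from 1.19 through 1.94 to 2.32 in the knockouts. It fell by 0.55 on the log2 scale, to 0.683 of wild type (SE 0.21, edgeR adjusted p = 0.0492), with overlapping groups. At 12 weeks it ran from 0.921 through 2.44 to 2.75 in wild type and from 0.966 through 1.14 to 1.95 in knockout, a log2 difference of -0.71 that did not pass the test (SE 0.28, edgeR adjusted p = 0.0593). The call is a weak one: it was lost at 2 weeks in 13 of 19 alternative analyses and made at 12 weeks in 3 of 19, always with the lower value in the knockout. C4a held only 11 to 120 counts a library.

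The makeup of C4 RNA differed between genotypes. C4b took 65.4% ± 4.02 (SD, n = 6) of the summed C4a and C4b counts in the 2-week wild types and 98.1% ± 0.571 (SD, n = 6) in the knockouts. The wild types ran from 60.2% to 70.7% and the knockouts from 97.4% to 98.9%, a difference of 32.7 percentage points (exact permutation p = 0.00216, two-sided, the smallest the design allows). At 12 weeks C4b took 74.9% ± 14.6 (SD, n = 6) in wild type, from 49.0% to 89.0%, and 97.7% ± 0.626 (SD, n = 6) in knockout, from 97.0% to 98.7%. The difference of 22.8 points was again without overlap (exact permutation p = 0.00216, two-sided). The share is made of the same C4a and C4b counts as the tests above. It therefore restates those differences and is no independent result.

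**Figure D2:**
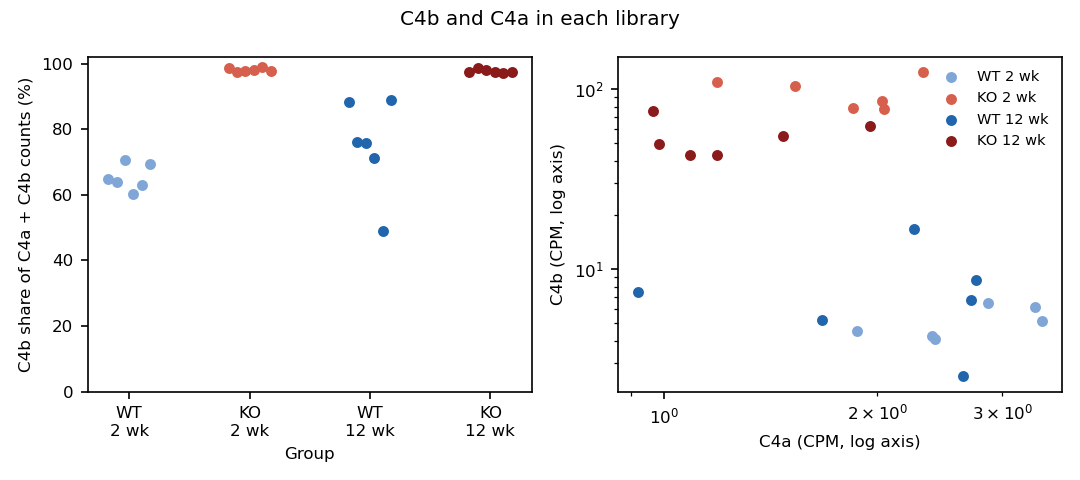
Left, share of C4b in the summed C4a and C4b counts (percent) in each library by group. Right, C4b against C4a level (CPM, both axes log). The 12 knockout libraries lie between 97.0% and 98.9%, all above the wild types, and separate from them along the C4b axis while overlapping along the C4a axis.

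C3 (chr17:57203970-57228136), the component on which all routes of activation meet, had the largest 2-week fold of the 9 genes. It ran from 11.5 CPM through 15.9 to 25.9 in wild type and from 227 through 424 to 480 in knockout. Every knockout library was above every wild type, and C3 rose 23.5-fold (log2 4.55, SE 0.24, edgeR adjusted p = 4.11e-08). At 12 weeks it ran from 11.4 through 20.9 to 86.4 CPM in wild type and from 194 through 295 to 389 in knockout. The rise was 10.2-fold without overlap (log2 3.35, SE 0.52, edgeR adjusted p = 0.000619). Wild-type library 1 held the 86.4 CPM, and without it the 12-week log2 difference was 4.06 (SE 0.29, edgeR adjusted p = 3.79e-06).

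Cfb (chr17:34856374-34862518), the factor B of the alternative convertase, did not rise with C3. It ran from 10.2 CPM through 19.9 to 22.5 in the 2-week wild types and from 11.4 through 18.2 to 20.7 in the knockouts. These overlapped almost wholly, with a log2 difference of -0.07 (SE 0.19, edgeR adjusted p = 0.831). At 12 weeks it ran from 24.4 through 28.0 to 36.7 in wild type and from 15.9 through 19.1 to 23.5 in knockout. All 6 knockouts lay below all 6 wild types, as 8.3% of tested genes did, and Cfb fell to 0.667 of wild type (log2 -0.59, SE 0.12, edgeR adjusted p = 0.00121). The gene model limits this value: 79.5% of the exonic bases of Cfb, and 42.8% of those of C2, are shared on the same strand with the read-through gene Gm20547, which held 2 counts in all 24 libraries. Of the 579 bases that are Cfb's own, 80.7% lie in 1 segment at chr17:34862052-34862518. The sources used here give no counting options for such overlaps, and whether the rest of the Cfb transcript moved in the same way was not tested.

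Cfi (chr3:129835884-129875332), whose product ends convertase activity, rose by an amount near that of C4b. It ran from 1.24 CPM through 2.16 to 2.58 in the 2-week wild types and from 25.6 through 42.7 to 51.8 in the knockouts. The groups were far apart, with a log2 difference of 4.35 (SE 0.19). At 12 weeks it ran from 1.51 through 1.91 to 2.83 in wild type and from 11.4 through 16.3 to 26.1 in knockout. It rose 8.27-fold there, without overlap (log2 3.05, SE 0.23, edgeR adjusted p = 4.86e-07).

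**Figure D3:**
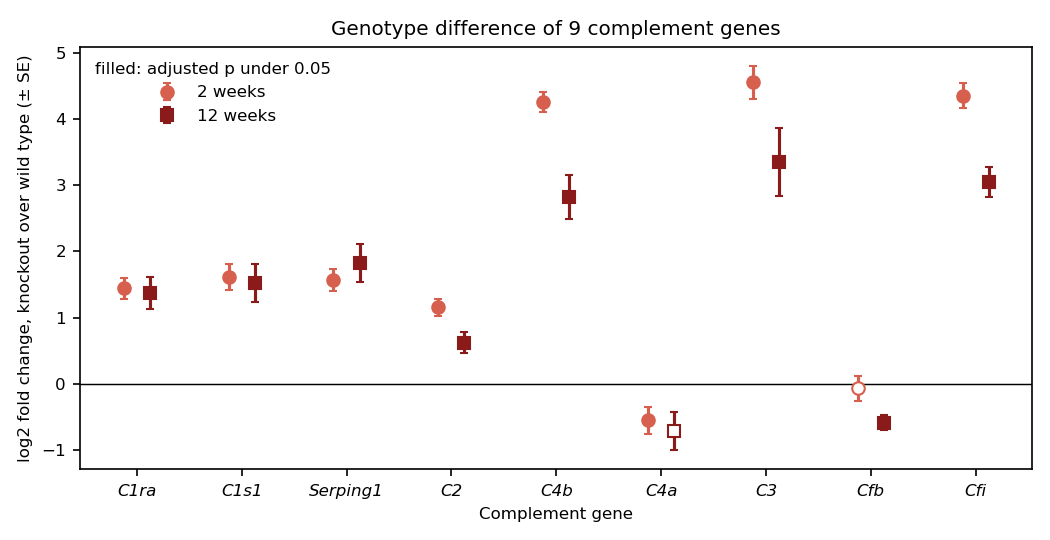
Log2 fold change of each complement gene, knockout over wild type, at 2 weeks (circles) and 12 weeks (squares), with bars of 1 standard error from edgeR. Filled symbols have an adjusted p under 0.05. C3, C4b and Cfi lie between 2.82 and 4.55, C1ra, C1s1 and Serping1 between 1.38 and 1.83, C2 at 1.16 and 0.62, and C4a and Cfb below 0.

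Per length, the order of the genes changed with genotype. In the 2-week wild types Serping1 led at 13.4 ± 1.12 CPM per kilobase of exon (SD, n = 6), followed by Cfb at 6.39 ± 1.6, C1s1 at 3.83 ± 0.281, C3 at 3.38 ± 1.03, C1ra at 2.99 ± 0.316, C2 at 1.42 ± 0.185, Cfi at 0.925 ± 0.205, C4b at 0.898 ± 0.179 and C4a at 0.437 ± 0.0963. C3 lay within its spread of both C1s1 and C1ra, which differed from each other by more than their SDs together, and Cfi and C4b lay within their spread. In the 2-week knockouts C3 led at 78.4 ± 18.2 CPM per kilobase, ahead of Serping1 at 39.1 ± 12.0, Cfi at 18.7 ± 4.37 and C4b at 16.9 ± 3.29, the last 2 again within their spread. In the 12-week knockouts Serping1 at 68.8 ± 25.6 and C3 at 57.4 ± 16.9 were within their spread, and C1s1 at 29.5 ± 9.32 stood above C4b at 9.61 ± 2.20 and Cfi at 7.79 ± 2.5. The order turns for Cfb and C2 if only the bases that no other gene model shares were counted. Per kilobase of those bases the 2-week wild types held 31.2 ± 7.83 CPM of Cfb, above Serping1, and 2.68 ± 0.348 of C2, within its spread of C1ra, and the 2-week knockouts 29.1 ± 6.76 and 5.85 ± 0.795.

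Whether the genotype difference changed with duration was asked with an interaction term. No member passed it by edgeR, where 0.174% of tested genes did. DESeq2 called 2 members and 154 genes in all. In edgeR, C2, C3, C4b, Cfb and Cfi had an unadjusted p under 0.05, each with a lower log2 fold change at 12 than at 2 weeks. The share of all tested genes at that unadjusted threshold was not counted, so no excess among the members can be read from it. For C4b the change was -1.44 (SE 0.36, edgeR adjusted p = 0.113, DESeq2 adjusted p = 0.0386) and for Cfi -1.30 (SE 0.32, edgeR adjusted p = 0.101, DESeq2 adjusted p = 0.00984). C3 changed by -1.20 (SE 0.54), which did not pass in either tool and was -0.49 without wild-type library 1 of 12 weeks, and the C1 proteases by -0.06 for C1ra and -0.09 for C1s1, with directions that turned when single libraries were left out.

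Within a genotype, the C1 proteases were higher at the longer duration, and in the knockouts C4b and Cfi were lower. In wild type 3 members were higher at 12 than at 2 weeks and none lower, where 30.4% of tested genes were called, 15.8% as higher and 14.7% as lower. C1s1 rose by 1.45 on the log2 scale, C1ra by 0.74 and Cfb by 0.71 (edgeR adjusted p = 0.000222, 0.0125 and 0.00166). In knockout 3 were higher and 2 lower, where 33.8% were called, 17.7% as higher and 16.1% as lower. There C1s1 rose by 1.35, Serping1 by 0.81 and C1ra by 0.68 (edgeR adjusted p = 0.000218, 0.0105 and 0.0122), while C4b fell by 0.82 and Cfi fell by 1.26 (edgeR adjusted p = 0.00791 and 4.77e-06). The libraries of the 2 durations were also deposited under different naming series and differed in depth, so duration and any difference in preparation cannot be told apart. Without wild-type library 1 at 12 weeks C1ra missed the threshold in wild type (log2 0.59, edgeR adjusted p = 0.0502).

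Between libraries of a group, C1ra, C1s1 and Serping1 varied together. Their deviations from the group means on the log2 scale, over 24 libraries, gave a Pearson r of 0.94 for C1ra with C1s1 (Spearman rho 0.92), 0.95 for C1s1 with Serping1 (rho 0.96) and 0.92 for C1ra with Serping1 (rho 0.89). Each r had a permutation p of 1e-05, the smallest that 100000 permutations within groups can give, and an adjusted p of 0.000167 over 117 relations. Without the 2 libraries farthest from the median of the second gene the r were 0.93, 0.95 and 0.89. Within single groups r was 0.89 or more for all 3 pairs in the 2-week knockouts and both 12-week groups, but 0.23, 0.61 and 0.02 in the 2-week wild types, where the genes varied little. C3 with C4b had an r of 0.74 (rho 0.57, permutation adjusted p = 0.0206), which fell to 0.42 without wild-type libraries 1 and 5 of 12 weeks. The size of that pooled r therefore rests in part on them. Within single groups it was 0.62 in the 2-week wild types and 0.44 in the 2-week knockouts. At 12 weeks it was 0.80 in the wild types, which hold these 2 libraries, and 0.74 in the knockouts. Cfb varied against C1s1 with an r of -0.44 (rho -0.60, permutation adjusted p = 0.0485) and against Serping1 with -0.47 (rho -0.58, permutation adjusted p = 0.0236). Without the 2 farthest libraries, which differ between the pairs, r was -0.75 and -0.39. In the 12-week wild types and knockouts r was -0.89 and -0.82 with C1s1, and -0.89 and -0.81 with Serping1. In the 2-week wild types and knockouts it was -0.64 and -0.16 with C1s1, and -0.03 and -0.40 with Serping1. Over all groups Cfi had an r of 0.21 to C3 and -0.12 to C4b (rho 0.28 and 0.083, permutation adjusted p = 0.483 and 0.708). The groups were unlike in this: in the 2-week knockouts r was 0.86 and 0.67, in the 12-week knockouts 0.26 and -0.11, in the 2-week wild types 0.29 and -0.49 and in the 12-week wild types -0.06 and -0.33. In knockout library 2 at 12 weeks C1ra, C1s1, Serping1, C2, C3 and C4b all had the highest level of their group, at 58.8, 139, 256, 14.2, 389 and 75.4 CPM, while Cfi, C4a and Cfb had the lowest, at 11.4, 0.966 and 15.9. In all, 7 of 36 gene pairs passed at an adjusted p under 0.05, of them 5 with a positive r. The share among pairs of other genes was not counted.

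Markers of other kidney cells moved with genotype as well, and with some members. Of all tested genes 18.2% were called higher in the knockout at 2 weeks and 20.7% at 12 weeks. The summed level of 7 fibroblast markers ran from 124 to 177 CPM in the 2-week wild types and from 501 to 1377 in the knockouts, and from 116 to 407 against 547 to 1444 at 12 weeks, with 7 of 7 markers higher in the knockout at both durations. The 8 macrophage markers summed to 103 to 137 CPM against 314 to 782 at 2 weeks and 108 to 258 against 452 to 892 at 12 weeks, with 8 of 8 higher at both. Within groups the fibroblast sum had an r of 0.92 with C1ra, 0.93 with C1s1 and 0.92 with Serping1 (each permutation adjusted p = 0.000167), 0.60 with C3 (adjusted p = 0.0309), 0.45 with C4b (adjusted p = 0.175) and 0.26 with Cfi (adjusted p = 0.394). The corresponding rho were 0.89, 0.91, 0.94, 0.58, 0.48 and 0.22. Without 2 libraries each (wild type 6 and knockout 1 of 12 weeks) the first 3 r were 0.89, 0.92 and 0.89. With the macrophage sum r was 0.76 for C1ra, 0.78 for C1s1, 0.81 for Serping1 and 0.68 for C3 (rho 0.74, 0.76, 0.80 and 0.62), with permutation adjusted p of 0.00175, 0.00211, 0.000167 and 0.00714. For Cfi it was -0.03 over all groups (adjusted p = 0.913), but the groups were unlike. Cfi had an r of 0.62 with this sum in the 2-week knockouts and -0.47 in the 12-week knockouts. In the 2-week and 12-week wild types it was -0.48 and -0.13. Relations with other marker sums passed as well. The T cell sum gave an r of 0.76 with C1ra, 0.80 with C1s1 and 0.84 with Serping1 (permutation adjusted p = 0.003, 0.000936 and 0.000292). The neutrophil sum gave 0.67, 0.69 and 0.76 (permutation adjusted p = 0.00714, 0.005 and 0.00106). With the proximal tubule sum r was -0.63, -0.56 and -0.51 (permutation adjusted p = 0.00936, 0.0274 and 0.0695). Of the 81 relations between a member and a marker sum 27 passed, 21 with a positive r. How many other genes would pass with these sums was not counted, so the number cannot be called particular to complement genes. What part these cells had in the genotype differences was not tested.

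Of 8 hepatocyte markers 4 were tested, of which 0 were higher in the knockout at either duration and 1 was lower at 2 weeks. Their 8-gene sum ran from 220 to 328 CPM in wild type and from 123 to 282 in knockout at 2 weeks, and from 256 to 518 against 151 to 376 at 12 weeks. Most of the sum was Apob, at 255 ± 44.9 against 168 ± 47.5 CPM at 2 weeks and 315 ± 96.0 against 213 ± 52.9 at 12 weeks (SD, n = 6). Alb stood at 10.6 ± 2.32 against 8.15 ± 3.39 CPM and at 16.2 ± 2.40 against 16.2 ± 5.15. Serpina1a had the higher mean in the knockout without passing the test, at 6.38 ± 7.09 against 10.7 ± 8.04 CPM and at 16.2 ± 16.4 against 39.1 ± 21.5. Ahsg, Serpina3k and Cps1 held at most 3 counts in any library of the 2-week groups and the 12-week wild types, and at most 23, 32 and 2 in a 12-week knockout library. The part of hepatocyte RNA in the complement values was not tested. Within groups the sum varied against C1ra, C1s1 and Serping1 with an r of -0.78, -0.79 and -0.79 (rho -0.73, -0.73 and -0.75, permutation adjusted p = 0.00144, 0.00107 and 0.00091), and with an r of -0.67, -0.70 and -0.68 without 2 libraries. Among the other marker lists, 6 of 7 T cell markers were higher at both durations, and 1 of 5 B cell markers at 2 weeks and 0 at 12. Of 7 neutrophil markers only S100a8, S100a9 and Csf3r were tested, and these 3 were higher at both. Ly6g, Mpo, Elane and Retnlg did not pass the low-count filter, and Ly6g, Mpo and Elane held at most 3 counts in any library. Of 6 endothelial markers 1 was lower at each duration, and of 8 proximal tubule markers 5 and 7 were lower. The targeted gene Lrp2 is among both the 5 and the 7. Of 4 tested adipocyte markers 0 and 3 were higher. Over all tested genes 18.2% were called higher and 13.4% lower at 2 weeks, and 20.7% and 17.7% at 12 weeks. The counts of 1 in 5 B cell and 1 in 6 endothelial markers are near those shares.

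**Figure D4:**
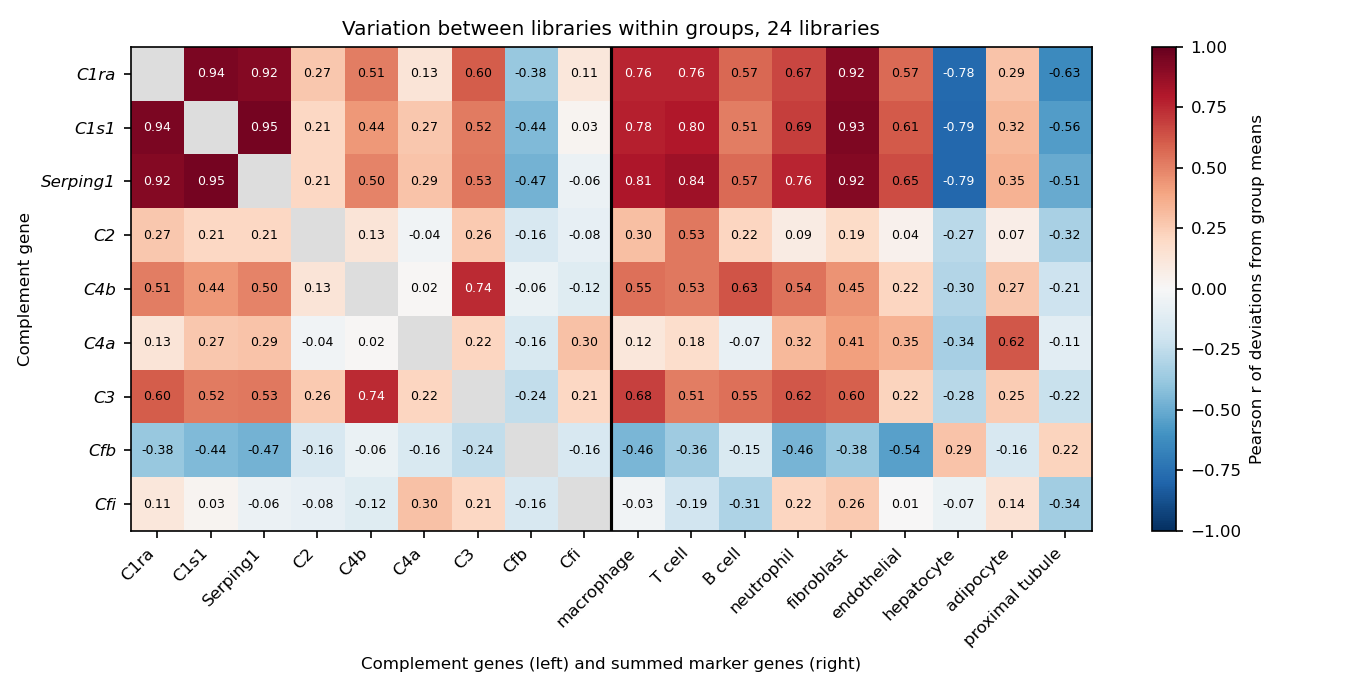
Pearson r between deviations from the group mean (log2 CPM, 24 libraries) of each complement gene (rows) and the other complement genes or the summed level of each cell type's markers (columns). Red is positive and blue negative. C1ra, C1s1 and Serping1 form a block at 0.92 to 0.95 and reach 0.92 to 0.93 with the fibroblast sum, while Cfi stays between -0.34 and 0.30 in every column.

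Each member was also set beside the 13558 genes with a mean of at least 1 CPM, by the root mean square difference of their centred log2 CPM over the 24 libraries. C1ra was nearest to Ifitm3 at 0.179, Serping1 to Fbln1 at 0.205, C2 to Ddx58 at 0.206 and Cfb to Sh3bp5 at 0.235. C4b was nearest to Lif at 0.391, C3 to C4b at 0.486 and Cfi to Spp1 at 0.352. The measure is not scaled, and the members' own root mean square spreads differed. They were 1.88 for C4b, 2.14 for C3 and 1.88 for Cfi. For C1ra, Serping1, C2 and Cfb they were 0.832, 0.964, 0.492 and 0.434. The distances therefore do not rank how close the neighbours of unlike members are. C4a was nearest to Gata2 at 0.337. For C1ra, C1s1 and Serping1 the nearest member of the 9 lay at 0.225, 0.382 and 0.225, and for C4a and Cfb at 0.698, with 9975 and 10768 genes closer.

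Of 45 other complement genes listed, 33 were tested. At 2 weeks 17 were higher and 3 lower in the knockout (median log2 fold change 0.97), where 18.2% of all tested genes were called higher and 13.4% lower. At 12 weeks 18 were higher and 3 lower (median 1.41), where 20.7% of all tested genes were called higher and 17.7% lower. The C1q chains rose, 3 of 3 at both durations: C1qa rose by 2.18 and then 1.95 on the log2 scale, from 17 ± 2.82 to 75.4 ± 29.8 CPM at 2 weeks (SD, n = 6). Of 4 lectin pathway genes tested 1 was higher at each duration, the protease gene Masp1, by 2.18 and 1.41. The lectins Mbl1 (log2 0.19 and 0.28) and Colec11 (0.55 and -0.44) did not pass the test. In the alternative pathway Cfp, which encodes the convertase stabiliser properdin, rose by 0.92 and 1.81.

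Among 5 terminal components tested, 3 were higher and 2 lower at both durations. Of all tested genes 18.2% were called higher and 13.4% lower at 2 weeks, and 20.7% and 17.7% at 12 weeks. C6 rose by 3.55 and 3.26 on the log2 scale and C7 by 1.33 and 1.59. Without wild-type library 4 the 2-week value of C6 was 4.30. Hc, which encodes C5, held 13 counts over the 2-week wild types against 300 in the knockouts. It had 0 counts in the 12-week wild types against 149 in the knockouts, so with 3 counts over the group as the floor its level was at least 38.3-fold higher. C8a, a gene of the membrane attack complex, fell by 1.00 and 0.85, and C8g fell by 0.30 and 0.47. The 2-week C8g call was lost when knockout library 4, 5 or 6 or wild-type library 1 or 3 was left out, at log2 values from -0.24 to -0.29.

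Of 7 soluble regulators listed 4 were tested, and 3 of them were higher at both durations, while Cpn1 (log2 0.97 and 1.10) did not pass. Over all tested genes edgeR called 18.2% as higher at 2 weeks and 20.7% at 12 weeks, and 31.6% and 38.5% in either direction. Clu, whose product clusterin holds back the terminal complex, rose by 2.77 and 2.00, from 166 ± 31.9 to 1111 ± 183 CPM at 2 weeks (SD, n = 6). C4bp, a cofactor for factor I, rose by 2.19 and 3.04 from 24 and 5 counts over the wild-type groups. Of 6 membrane regulators 0 passed at either duration in edgeR or DESeq2, and 0 had an unadjusted p under 0.05. Cd55 changed by -0.31 and -0.22, Susd4 by -0.12 and 0.33, and Cd46 by -0.26 and 0.05, the last turning negative without wild-type library 6 of 12 weeks. Without knockout library 2 at 2 weeks Cd55 passed at -0.46 (edgeR adjusted p = 0.00804). Of the C1 protease relatives, C1rl fell by 0.61 at 12 weeks and was at -0.29 without passing at 2 weeks, while C1s2 (0.13 and 1.05) did not pass. Without wild-type library 1 of 2 weeks C1rl passed there (-0.38, edgeR adjusted p = 0.00932), and without wild-type library 1 of 12 weeks C1s2 passed (1.33, edgeR adjusted p = 0.044).

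Receptors of complement fragments were higher in 6 of 7 genes at both durations, where 18.2% and 20.7% of all tested genes were called higher. The integrin genes Itgam, Itgax and Itgb2, which form receptors for C3 fragments on myeloid cells, rose by 3.08, 1.65 and 1.88 at 2 weeks and by 2.74, 1.64 and 1.85 at 12 weeks. Cr2, the receptor of B cells and follicular dendritic cells, was lower at 2 weeks by 0.75 (edgeR adjusted p = 0.0105) and did not pass at 12 weeks (-0.87, edgeR adjusted p = 0.154). The 2-week call of Cr2 was lost in a fit of all 24 libraries (adjusted p = 0.0887), and without knockout library 2 it was made at 12 weeks (-1.56, edgeR adjusted p = 0.00199).

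**Figure D5:**
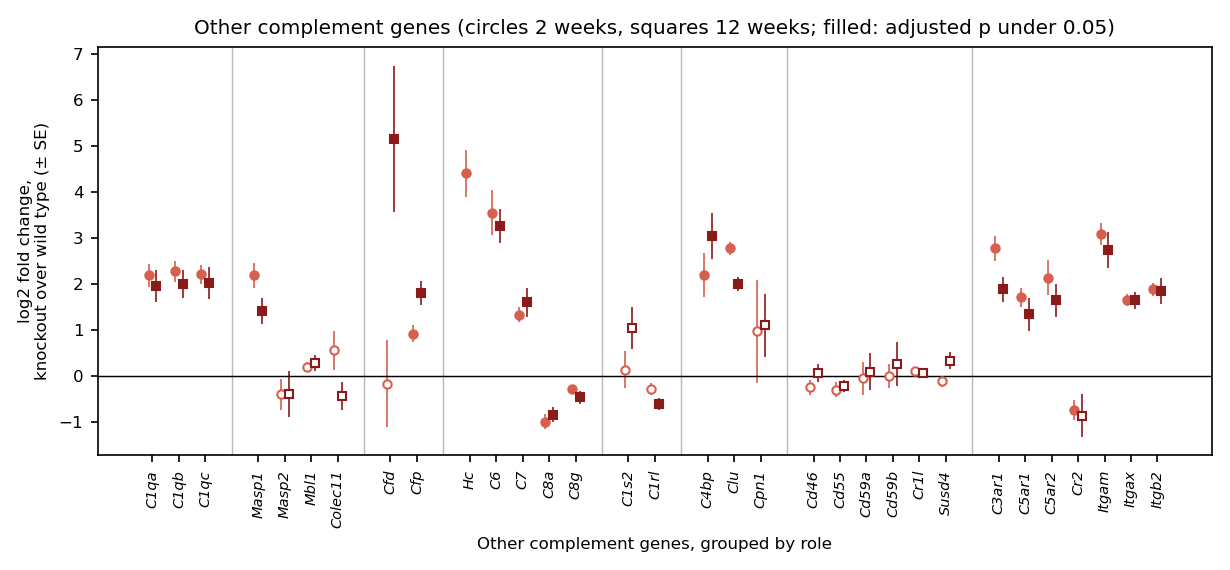
Log2 fold change, knockout over wild type, of other complement genes tested, ordered by role from C1q chains to receptors, at 2 weeks (circles) and 12 weeks (squares) with bars of 1 standard error. Filled symbols have an adjusted p under 0.05. The C1q chains and all receptors but Cr2 lie above 0 while the 6 membrane regulators sit near 0, and the 12-week value of Hc is left out because its wild types had 0 counts.

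The alternative pathway protease gene Cfd, a product of fat cells, varied widely between libraries. It ran from 0.0621 to 17.2 CPM in the 2-week wild types, 0.311 to 6.60 in the knockouts, 0.0 to 4.98 in the 12-week wild types and 0.0 to 113 in the knockouts. The 12-week call (log2 5.16, SE 1.59, edgeR adjusted p = 0.0268) was lost when knockout library 4 or any of wild-type libraries 2 to 6 was left out, and the log2 value was 8.06 without wild-type library 1. The 5 adipocyte markers summed to 33.9 to 78.3 CPM in the 12-week wild types and 47.9 to 276 in the knockouts, and their part in the Cfd values was not tested.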

How the data were processed

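Total RNA of kidney was extracted and made into messenger RNA libraries, per the labels' protocols. The authors deposited 1 table of raw counts per gene and library, and per the submitters' processing notes fastp, STAR 2.5, HTSeq 0.6.1 and mm10 were used. The sources used here give no strand setting, overlap mode or annotation release. Of 54532 gene IDs 54495 matched GENCODE M21. The other 37 held at most 0.00528% of a library.

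Counts were scaled by TMM and tested with edgeR 4.0.16 (R 4.3.3, glmQLFit with robust set, glmQLFTest, two-sided, filterByExpr with a minimum count of 10 and total of 15, 17286 genes tested). Each genotype comparison used its own libraries, and the interaction and duration comparisons all 24. P-values were adjusted by Benjamini-Hochberg over all tested genes. DESeq2 1.42.0, other scalings and filters, a replicate block and leaving out each library were alternatives. The code was tested on simulated data. Log2 CPM used a prior count of 2. Within-group relations used 100000 permutations within groups. The leave-outs of 2 libraries and the single-group values there were chosen after seeing the data. None of the 60 library pairs within a group agreed within counting noise.

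The members, the lists of other complement genes and the marker lists were chosen with earlier results of these data known. All 9 members were described. In each list of other complement genes the named ones were up to 3 with the smallest adjusted p and any called against the direction of most of the list. The neighbour of a member was the 1 gene with the smallest root mean square difference. C1rb and Cpn1 were named, and levels per kilobase of unshared bases added, after values were seen. Among the other complement genes and the neighbours of members, 1 item is not reported here.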

Additional observations from a re-analysis of the deposited data

Results flagged for a closer look

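Of 40 sets of 6 libraries screened for a library far from the rest of its group (Dixon's ratio, gap over range, above 0.625), 4 were found among the complement genes. Chance finds about 1 in 20. C3 was at 86.4 CPM in wild-type library 1 at 12 weeks, with the next highest at 25. C3 was at 227 CPM in knockout library 6 at 2 weeks, with the next lowest at 389. C2 was at 14.2 CPM in knockout library 2 at 12 weeks, with the next at 9.84. Serping1 was at 144 CPM in knockout library 3 at 2 weeks, with the next at 99.5.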

How the results depend on the processing

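For the 7 genes higher at both durations, the direction and the call held in every alternative at both durations. The count of members called ranged from 7 to 8 at 2 weeks, 8 to 9 at 12 weeks, 2 to 4 for wild type and 5 to 6 for knockout between durations. The interaction called 0 members and 30 genes in edgeR, 2 members and 154 genes in DESeq2, and from 0 to 1 members and 22 to 56 genes with a library left out. Cfi was the member called without knockout library 3 of 12 weeks or 6 of 2 weeks, and C4b without wild-type library 5 of 12 weeks. The cause was not tested.

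Some values that did not pass the test turned sign. With a library left out Cfb ran from -0.18 to 0.027 at 2 weeks, C1s2 from -0.12 to 0.33 at 2 weeks and Cd46 from -0.068 to 0.17 at 12 weeks. The interaction of C1ra ran from -0.20 to 0.088 and that of C1s1 from -0.24 to 0.13. Cfd at 2 weeks ran from -0.42 to 1.05. Cfi in wild type between durations ran from -0.067 to 0.12 and was -0.013 with no filter.

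Deviations of same-numbered libraries had correlations from -0.104 to 0.171. This gave no sign that the numbers pair the libraries, but it cannot exclude pairs. With the replicate block the interaction called 1 member, Cfi, and Cfd at 2 weeks was 0.67. The block ended the 2-week call of C4a (adjusted p = 0.0752).

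Between durations, 1 library decided some calls: without wild-type library 5 or 6 of 12 weeks C4b (0.79) or Serping1 (0.66) passed in wild type, and in knockout C2 passed without library 2 of 12 weeks (-0.43) or 6 of 2 weeks (-0.38) and C4a without library 5 of 12 weeks (-0.67). Depth limits C4a and Cfi in wild type, with at least 11 and 18 counts a library.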

Other observations

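C1rb, the near-copy of C1ra, held 82 counts over all 24 libraries, of which 60 were in knockout library 2 at 12 weeks. The same library had the highest C1ra level of its group. C4a varied within groups with the summed adipocyte markers (Pearson r 0.62, Spearman rho 0.67, permutation adjusted p = 0.005 and 0.00509 over 117 relations), with an r of 0.67 without wild-type library 4 of 2 weeks and knockout library 4 of 12 weeks. Within the groups r was 0.86, 0.47, 0.69 and 0.72.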
